A study of Homo sapiens with 12 samples.

Results

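The 10 genes described here encode 5 interferon and interleukin-10 family receptor chains (IFNAR1, IFNAR2, IFNGR1, IFNGR2 and IL10RB) and 5 brakes on the signal behind them (SOCS1, SOCS3, CISH, PTPN2 and PIAS1). They were taken by name from the 38478 genes of the deposited expression matrix, and all 10 were found. Polyadenylated RNA was sequenced from OPM-1 cells, a line grown from human multiple myeloma, after 48 h in 4 conditions of 3 replicates each. Cells received the solvent DMSO, lenalidomide (LEN) at 0.1 μM, AI-10-104 at 1 μM, or both drugs at these doses (LEN+AI-10-104). Lenalidomide makes the E3 ligase cereblon degrade the transcription factors IKZF1 and IKZF3, and AI-10-104 is an inhibitor of RUNX transcription factors. All groups share this single cell line, and the labels name no other treatment. The comparisons ask whether either drug, or the pair, altered the receptors and the brakes of a pathway that lenalidomide is known to act on in myeloma.

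Type I interferons bind a receptor made of IFNAR1 and IFNAR2, interferon-γ binds IFNGR1 and IFNGR2, and IL10RB is the chain shared by the receptors for interleukin-10, interleukin-22 and the type III interferons. Ligand binding activates the kinases JAK1, JAK2 and TYK2, which phosphorylate STAT proteins that then enter the nucleus and switch on target genes. SOCS1, SOCS3 and CISH are induced by STATs and shut the kinases or the receptor off, the phosphatase PTPN2 removes phosphate from JAKs and STATs, and PIAS1 inhibits STATs in the nucleus.

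Values are RPKM, reads on a gene scaled to its length in kilobases and to the reads counted on all genes of the library. Between 16352548 and 31386210 reads were counted per library, with the LEN+AI-10-104 libraries at 16352548 to 20419807 and LEN replicate 1 at 19442512 below the other 8. The 6 plasma cell markers (SDC1, TNFRSF17, IRF4, PRDM1, XBP1 and MZB1) summed to 1188 to 1475 RPKM in every library. Of the markers of other cells, the 3 of B cells summed to at most 0.0361 RPKM with PAX5 at 0, the 3 of T cells to at most 0.580 with CD3D at 0, the 3 of monocytes to at most 0.474, and the 3 of stroma to at most 0.0260 with COL1A2 at 0. In bulk RNA, fewer cells expressing a gene and less RNA per cell cannot be told apart.

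The receptor chains were expressed at very different levels, and their order was the same in all 12 libraries apart from IFNGR2, which is treated separately. IFNAR2 was the highest of the 10 genes, at 79.1 to 87.6 RPKM and above 93.1% of the 11241 genes tested. IFNAR1, its partner in the type I receptor, followed at 19.1 to 22.7 RPKM, so that IFNAR2 stood 3.59 to 4.36 times above IFNAR1 within a library. IL10RB ranged from 9.75 to 12.7 RPKM and IFNGR1 from 5.09 to 6.40 RPKM. Among the brakes, PTPN2 (8.13 to 10.1 RPKM) and PIAS1 (6.58 to 7.45 RPKM) were well expressed. SOCS3 (0.842 to 1.61 RPKM), CISH (0.417 to 0.843 RPKM) and SOCS1 (0.116 to 0.553 RPKM), the brakes that STATs induce, were all low. Over the 12 libraries the ranges of PTPN2 and IL10RB overlapped, as did those of SOCS3 and CISH and of CISH and SOCS1. The other neighbours in this order, IFNGR2 left out, did not overlap. Levels of different genes are per deposited gene length, which for IFNAR2 (3163 bases) and IL10RB (1961 bases) was far shorter than all their annotated exons (13865 and 8025 bases in GENCODE 44).

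**Figure D1:**
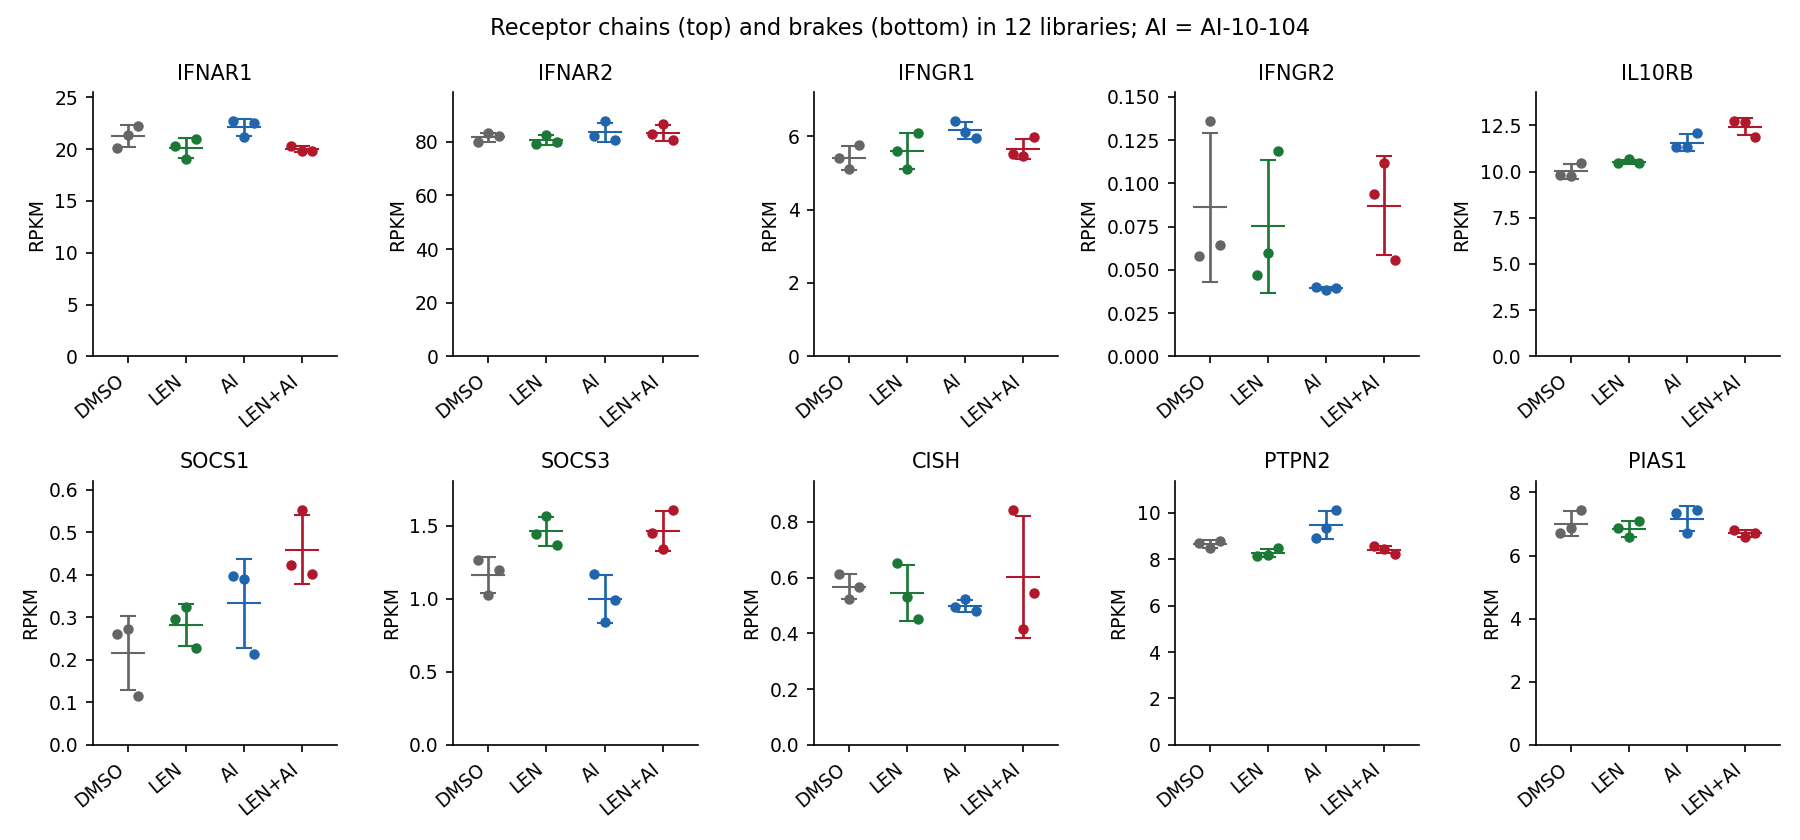
RPKM of the 10 genes in the 12 libraries, 1 panel per gene with its own axis from 0. Dots are replicates, and the bar and whiskers are the mean and SD of 3. The IL10RB dots of AI-10-104 (11.3 to 12.1) and LEN+AI-10-104 (11.9 to 12.7) lie above all those of DMSO (9.75 to 10.5), and the SOCS3 dots of LEN+AI-10-104 (1.34 to 1.61) above all those of AI-10-104 (0.842 to 1.17).

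Differences were tested on log2(RPKM + 0.1) with limma for the 8 genes that averaged 0.5 RPKM or more, which leaves out SOCS1 and IFNGR2. A gene is called at an adjusted p of at most 0.05 together with a log2 fold change of at least 0.32 in either direction. No gene of the 8 was called in LEN against DMSO, AI-10-104 against DMSO, LEN+AI-10-104 against DMSO or LEN+AI-10-104 against LEN, where 0.649%, 1.77%, 2.94% and 1.68% of the 11241 genes were called. At an unadjusted p under 0.05 there were 1, 3, 2 and 1 of the 8 genes, beside 1206, 2457, 2659 and 2315 of all genes. Limma voom on the reads also called 0 of the 8 in each, beside 104, 282, 384 and 213 of all genes. In LEN+AI-10-104 against AI-10-104 a single gene was called, SOCS3, beside 3.63% of all genes. There, 4 of the 8 and 3729 of all genes had an unadjusted p under 0.05. By adjusted p alone the background was 1.13% for LEN, 4.55% for AI-10-104 and 8.64% for LEN+AI-10-104 against DMSO, 4.62% in LEN+AI-10-104 against LEN and 15.0% in LEN+AI-10-104 against AI-10-104. By that rule IL10RB passed in 3 comparisons, and SOCS3 and PTPN2 in LEN+AI-10-104 against AI-10-104. Across all 4 conditions, 3 of the 8 genes (IL10RB, SOCS3 and PTPN2) differed by the F test, as did 17.2% of all genes. Of the 3, IL10RB passed the F test in every alternative run. These counts over all genes moved with single libraries. The 73 genes of LEN against DMSO became 35, 41, 46 and 48 without LEN replicate 1 or 3 or DMSO replicate 2 or 3. The 199 of AI-10-104 against DMSO became 443 without AI-10-104 replicate 2, and 119, 129 and 127 without AI-10-104 replicate 1 or 3 or DMSO replicate 1. The 408 of LEN+AI-10-104 against AI-10-104 became 764 without AI-10-104 replicate 2, and 183, 213 and 221 without AI-10-104 replicate 1 or 3 or LEN+AI-10-104 replicate 1. The 1929 of the F test became 2975 without AI-10-104 replicate 2, and 968, 1049, 1156, 1226 and 1268 without AI-10-104 replicate 1 or 3, LEN+AI-10-104 replicate 1 or 2 or DMSO replicate 2. The median log2 fold change of the 8 genes was -0.03 for LEN, 0.05 for AI-10-104 and 0.03 for LEN+AI-10-104 against DMSO, where that of all genes was -0.00215, 0.00814 and 0.0203.

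**Figure D2:**
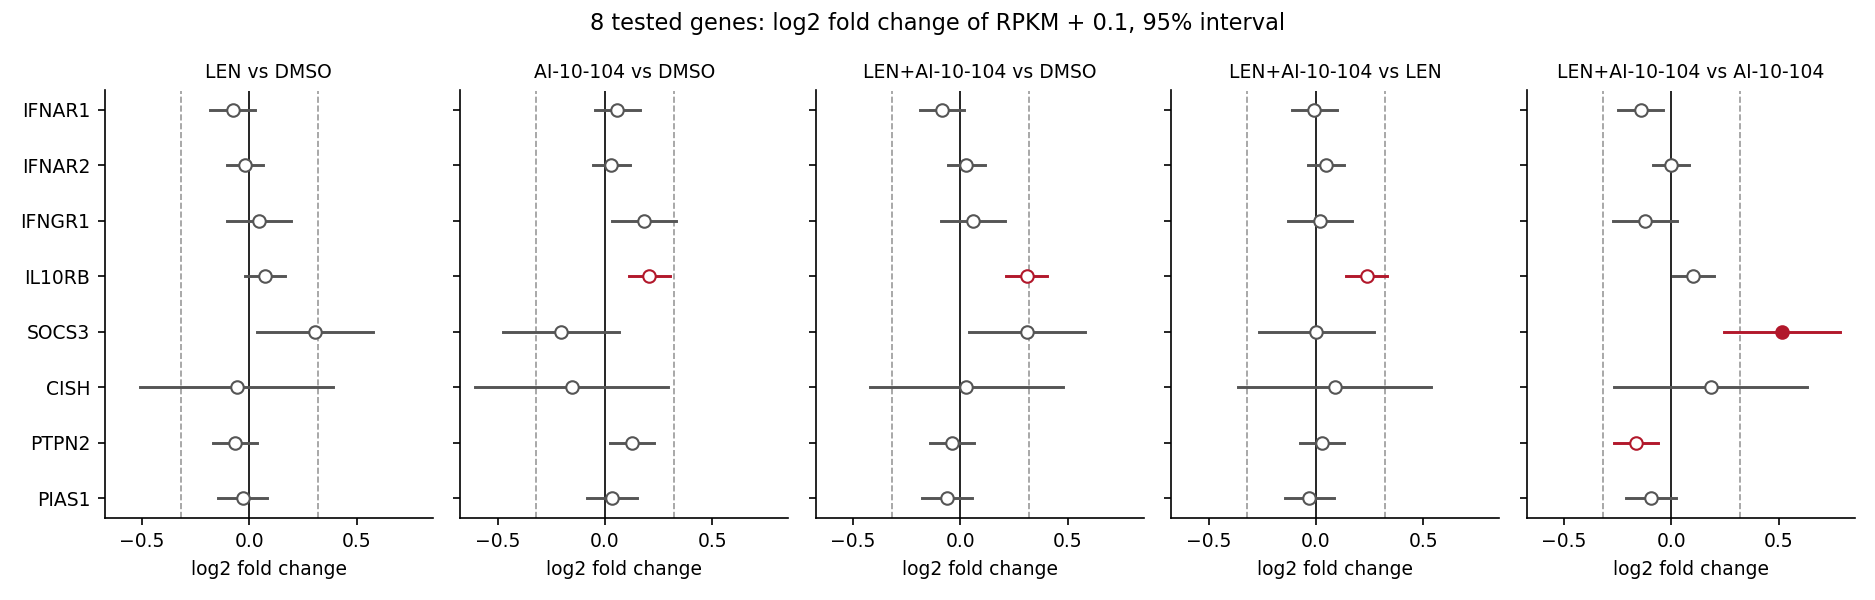
Log2 fold change of the 8 tested genes in 5 comparisons, with 95% intervals. Red marks an adjusted p of at most 0.05, a filled dot a gene that also passed the fold threshold (dashed lines at 0.32 and -0.32), and only SOCS3 in LEN+AI-10-104 against AI-10-104 (0.51) is filled.

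IL10RB, the receptor chain with the smallest p across the 4 conditions, was higher in every library with AI-10-104. It measured 9.81, 9.75 and 10.5 RPKM in DMSO and 10.4, 10.7 and 10.5 RPKM in LEN. With AI-10-104 it measured 11.3, 11.3 and 12.1 RPKM, and with LEN+AI-10-104 12.7, 12.7 and 11.9 RPKM. The 6 libraries with AI-10-104 were above all 6 without it, while DMSO overlapped LEN and AI-10-104 overlapped the combination. Against DMSO the log2 fold change was 0.31 ± 0.04 (SE, n = 3 per group) in LEN+AI-10-104, a ratio of 1.24 (95% interval 1.16 to 1.32), at an adjusted p of 0.00137. It was 0.21 ± 0.04 in AI-10-104 (adjusted p = 0.0215) and 0.07 ± 0.04 in LEN (adjusted p = 0.632). LEN+AI-10-104 against LEN gave 0.24 ± 0.04 (adjusted p = 0.0106), and against AI-10-104 0.10 ± 0.04 (adjusted p = 0.123). These values passed or missed on the adjusted p, and all of them lie under the fold threshold. Without DMSO replicate 3 or LEN+AI-10-104 replicate 3 the difference of LEN+AI-10-104 from DMSO was called, at 0.34 each. The adjusted p of AI-10-104 against DMSO rose to between 0.0565 and 0.0950 without DMSO replicate 1 or 2 or AI-10-104 replicate 1 or 3 and to 0.0991 in a fit to the compared conditions alone, and that of LEN+AI-10-104 against LEN to 0.0505 without LEN+AI-10-104 replicate 1.

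IL10RB lies at chr21:33266367-33311420 (GRCh38, GENCODE 44), next to the other receptor genes. An annotated gene on the same strand, IFNAR2-IL10RB, shares 1732 exon bases with IL10RB and 2038 with IFNAR2. It is not listed in the deposited matrix, and its part in the reads of either gene was not tested. The window from 250 bases before to 30 bases after its RefSeq start (chr21:33266117-33266396, plus strand) is shown because IL10RB is the receptor chain that differed. A match to the interferon-γ activation site motif of STATs is in capitals.
IL10RB: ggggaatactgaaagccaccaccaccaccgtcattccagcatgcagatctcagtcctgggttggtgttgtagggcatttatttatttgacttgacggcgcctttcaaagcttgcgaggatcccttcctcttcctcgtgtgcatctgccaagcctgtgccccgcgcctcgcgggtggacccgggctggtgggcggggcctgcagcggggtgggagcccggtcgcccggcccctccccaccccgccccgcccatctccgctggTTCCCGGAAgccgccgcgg
The motif TTCNNNGAA, which reads the same on both strands, was found once as TTCCCGGAA, with its first base at position 12 counted from 1 at the start. It occurs in 7.66% of 35116 RefSeq promoter windows of 300 bases. The RUNX core TGTGGT, found in 13.1% of windows on either strand, and TGCGGT, found in 7.29%, had no match in the IL10RB window. A match is a run of letters and was not tested as a binding site.

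IL10RB works with IL10RA, the chain that binds interleukin-10 itself, and IL10RA was called in 3 of the 5 comparisons. IL10RA measured 6.52, 6.40 and 6.23 RPKM in DMSO and 7.59, 8.23 and 8.21 RPKM in LEN. It fell to 4.22, 4.79 and 4.52 RPKM with AI-10-104 and was 5.20, 5.70 and 5.38 RPKM with both drugs. No 2 conditions overlapped. LEN raised IL10RA by 0.32 on the log2 scale (SE 0.06, adjusted p = 0.0179), a call at the threshold that 7 of 24 alternatives lost, among them the removal of DMSO replicate 2 or 3 or LEN replicate 2 or 3. AI-10-104 lowered it to a log2 fold change of -0.49 (SE 0.06, adjusted p = 0.000477), and LEN+AI-10-104 against LEN gave -0.55 (SE 0.06, adjusted p = 0.000205), both called in all 24 alternatives. LEN+AI-10-104 against DMSO gave -0.23 (adjusted p = 0.0271), under the fold threshold. The ratio of IL10RB to IL10RA was 1.57 ± 0.10 in DMSO, 1.32 ± 0.05 with LEN, 2.57 ± 0.18 with AI-10-104 and 2.29 ± 0.13 with both (SD, n = 3 each). IL10, the ligand, measured 0.583 to 1.35 RPKM on 22 to 47 reads, and its highest values, 1.05 to 1.35 RPKM, were those of LEN+AI-10-104 (log2 fold change against DMSO 0.50, SE 0.17, adjusted p = 0.0999).

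The chains of the type I interferon receptor stayed within narrow limits. IFNAR2 measured 79.9, 83.1 and 82.2 RPKM in DMSO, 79.1, 82.7 and 80.0 RPKM with LEN, 82.2, 87.6 and 80.7 RPKM with AI-10-104 and 83.0, 86.5 and 80.5 RPKM with both drugs. All conditions overlapped, and over the 5 comparisons the 95% intervals of the ratio ran from 0.929 to 1.10. IFNAR1 measured 20.1, 21.4 and 22.3 RPKM in DMSO, 20.3, 19.1 and 21.0 RPKM with LEN, 22.7, 21.1 and 22.5 RPKM with AI-10-104 and 20.3, 19.8 and 19.8 RPKM with both drugs. The combination lay below every AI-10-104 library, by -0.14 on the log2 scale (SE 0.05, adjusted p = 0.0607), which missed the test. That adjusted p ran from 0.0373 to 0.116 over other settings and from 0.0270 to 0.195 with single libraries removed. The difference always stayed under the fold threshold. For IFNAR1 the intervals of the ratio ran from 0.842 to 1.12.

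IFNGR1, the ligand-binding chain for interferon-γ (chr6:137197483-137219449), measured 5.39, 5.10 and 5.75 RPKM in DMSO, 5.59, 5.09 and 6.09 RPKM with LEN, 6.40, 6.12 and 5.95 RPKM with AI-10-104 and 5.51, 5.46 and 5.97 RPKM with both drugs. The AI-10-104 libraries lay above DMSO without overlap, with a ratio of 1.14 (95% interval 1.02 to 1.26) and an adjusted p of 0.145. The type III interferon chain IFNLR1, which pairs with IL10RB, was well expressed at a mean of 12.8 RPKM and was not called.

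IFNGR2, the partner of IFNGR1, is listed at 0.0386 to 0.136 RPKM on 4 to 18 reads, and these values carry a limit of their own. IFNAR2 (33205282 to 33265675), IL10RB, IFNAR1 (33324387 to 33359864) and IFNGR2 (33403413 to 33479348) lie in this order within 274 kb of chromosome 21. TMEM50B, which overlaps IFNGR2 on the opposite strand and shares 380 exon bases with it, is listed at a mean of 0.000575 RPKM. The next gene, DNAJC28, is listed at 0 RPKM, and GART after it at a mean of 26.6 RPKM. The exons of each protein-coding gene were cut into windows of 50 bases and looked up, letter for letter, on the 261 alternate-locus contigs of the human genome sequence. For IFNGR2, 42 of 46 windows (91.3%) had such a copy, for TMEM50B 98.8% and for DNAJC28 100%, against 3.57% for IFNAR1, 1.11% for IFNAR2, 1.25% for PTPN2 and 0% for the other 6 genes. The deposited length of IFNGR2 was 4384 bases, 1.73 times its annotated exons (2539 bases). Of the 626 protein-coding genes with copies of at least 90% of their windows, 588 (93.9%) had a mean under 0.1 RPKM, against 5794 of 12605 genes (46.0%) with no copied window. SOCS7 (97.7% of windows, mean 0.0968 RPKM), IRF7 (98.0%, 0.0041 RPKM), TAP1 (100%, 0.0029 RPKM) and PSMB9 (100%, 0.0105 RPKM) stood with IFNGR2, while B2M had 94.9% of its windows copied and a mean of 29.6 RPKM. How reads with several matching places were counted is not given in the sources used here, and the part of these copies in the low values was not tested. No level or difference is therefore read from IFNGR2.

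**Figure D3:**
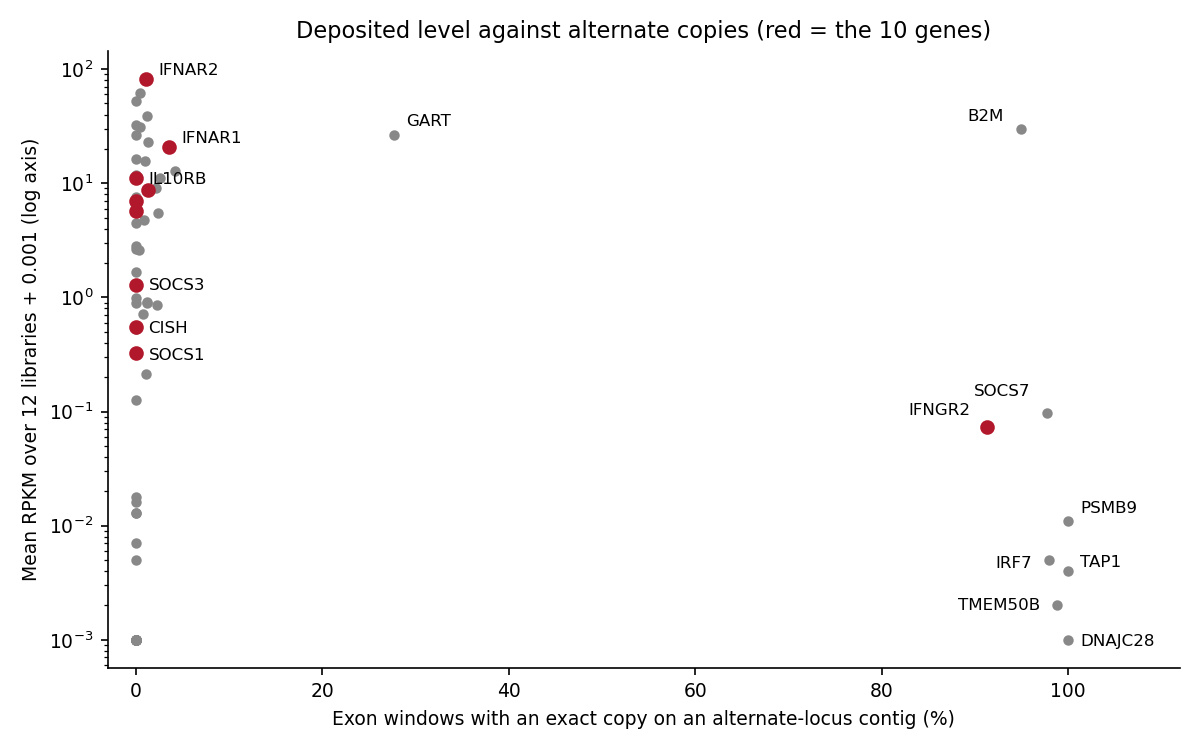
Mean RPKM plus 0.001 (log axis) against the share of 50-base exon windows with an exact copy on an alternate-locus contig, for the 10 genes (red), the other genes of the pathway and chromosome 21 neighbours (grey). IFNGR2 (91.3% of windows) is listed at 0.0720 RPKM and stands with SOCS7, PSMB9, IRF7, TAP1, TMEM50B and DNAJC28, while the other 9 genes are at or under 3.57%, and B2M is the exception at the upper right.

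SOCS3, which blocks JAK kinases and the receptors that share gp130, was the single brake to be called between 2 conditions. Its values were 1.27, 1.03 and 1.20 RPKM in DMSO, 1.45, 1.57 and 1.37 RPKM with LEN, 1.17, 0.842 and 0.994 RPKM with AI-10-104 and 1.45, 1.34 and 1.61 RPKM with both drugs, on 60 to 131 reads. All 6 libraries with LEN lay above all 6 without it, and DMSO overlapped AI-10-104 as LEN overlapped the combination. The SOCS3 F test (adjusted p = 0.0283) was lost without LEN replicate 1 or 2, AI-10-104 replicate 3 or LEN+AI-10-104 replicate 1 or 3 (0.0518 to 0.0772) and with every gene of any RPKM above 0 (0.0768). SOCS3 was higher in LEN+AI-10-104 than in AI-10-104 by 0.51 ± 0.12 on the log2 scale (SE, n = 3 per group), a ratio of 1.43 (95% interval 1.18 to 1.72), at an adjusted p of 0.0205. Against DMSO the log2 fold change was 0.31 in both LEN (SE 0.12, adjusted p = 0.371) and LEN+AI-10-104 (SE 0.12, adjusted p = 0.152), and -0.21 in AI-10-104 (adjusted p = 0.359), none of which passed. The call was lost without AI-10-104 replicate 3 (adjusted p = 0.0665), LEN+AI-10-104 replicate 1 (0.0618) or LEN+AI-10-104 replicate 3 (0.0583), with every gene of any RPKM above 0 (0.0527) and in a fit to the compared conditions alone (0.0651). It was also lost with a pseudocount of 1, where the log2 fold change of 0.30 fell under the threshold, and over all alternatives the adjusted p ran from 0.0141 to 0.0665.

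SOCS1, an inhibitor that binds the kinases directly, was under the minimum mean and is given by its values. It measured 0.262, 0.272 and 0.116 RPKM in DMSO, 0.296, 0.324 and 0.228 RPKM with LEN, 0.397, 0.390 and 0.213 RPKM with AI-10-104 and 0.424, 0.553 and 0.403 RPKM with both drugs. These rest on 3 to 14 reads, with DMSO replicate 3 at the floor of 3 reads. All 3 libraries of the combination were above those of DMSO and of the other conditions. In a fit that kept every gene with any read, SOCS1 in LEN+AI-10-104 against DMSO had a log2 fold change of 0.85 (95% interval 0.28 to 1.43) and an adjusted p of 0.129. At this depth a difference was not detectable after adjustment. SOCS1 lies on the opposite strand inside RMI2, a gene at 12.9 to 17.8 RPKM with which it shares no exon base.

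CISH, the STAT5-induced member of the SOCS family, was 0.614, 0.522 and 0.567 RPKM in DMSO, 0.651, 0.530 and 0.453 RPKM with LEN, 0.496, 0.521 and 0.480 RPKM with AI-10-104 and 0.843, 0.417 and 0.544 RPKM with both drugs. The conditions overlapped, apart from AI-10-104, whose highest value was just under the lowest of DMSO. The replicates of the combination held both the highest and the lowest value of all libraries. Intervals of the ratio over the 5 comparisons ran from 0.658 to 1.55, so changes of that size could not be told from none. CISH shares 218 exon bases with MAPKAPK3 on the opposite strand (16.3 to 19.5 RPKM), and the strand setting of the counting is not given in the sources used here.

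The promoters of SOCS1 and CISH, both STAT-induced brakes, are shown because STAT and interferon motifs bear on how these genes are known to be induced. They run from 250 bases before to 30 bases after the start, with motif matches in capitals.
SOCS1: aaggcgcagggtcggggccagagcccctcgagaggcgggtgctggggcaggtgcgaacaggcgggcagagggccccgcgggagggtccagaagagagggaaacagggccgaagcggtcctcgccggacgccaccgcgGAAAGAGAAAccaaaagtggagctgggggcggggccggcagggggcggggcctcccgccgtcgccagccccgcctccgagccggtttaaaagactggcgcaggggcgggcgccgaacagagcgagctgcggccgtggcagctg
CISH: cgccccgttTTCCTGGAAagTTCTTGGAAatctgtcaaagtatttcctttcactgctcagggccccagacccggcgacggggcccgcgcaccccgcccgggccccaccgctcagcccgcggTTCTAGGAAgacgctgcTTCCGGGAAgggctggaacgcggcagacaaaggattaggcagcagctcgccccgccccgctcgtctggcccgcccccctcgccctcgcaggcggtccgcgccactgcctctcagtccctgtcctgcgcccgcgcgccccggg
The SOCS1 window (chr16:11256175-11256454, minus strand) held GAAAGAGAAA at position -113, a match to the interferon response element core GAAANNGAAA, found in 3.57% of RefSeq windows on either strand. The CISH window (chr3:50611745-50612024, minus strand) held 4 matches to TTCNNNGAA, TTCCTGGAA at -241, TTCTTGGAA at -230, TTCTAGGAA at -129 and TTCCGGGAA at -112. Of the remaining genes with a RefSeq window, IFNGR1 alone had a match, to the RUNX core TGCGGT at -154 in its reverse form ACCGCA. The windows of SOCS3 and PTPN2 do not contain the gene start that GENCODE 44 gives, so they do not describe the promoter there. TTCNNNNGAA, found in 6.44% of windows, was in none. The table held 13 windows for 9 of the 10 genes, with IFNAR2 not among them, and all sequences are of GRCh38 (release p14).

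PTPN2, a phosphatase of JAK1 and JAK3, measured 8.70, 8.48 and 8.78 RPKM in DMSO, 8.13, 8.19 and 8.47 RPKM with LEN, 8.92, 9.35 and 10.1 RPKM with AI-10-104 and 8.58, 8.43 and 8.24 RPKM with both drugs. The AI-10-104 libraries lay above all others. LEN+AI-10-104 was lower than AI-10-104 by -0.17 ± 0.05 on the log2 scale (SE, adjusted p = 0.0353), a ratio of 0.892 (95% interval 0.831 to 0.957) under the fold threshold. AI-10-104 against DMSO gave 0.13 ± 0.05 (adjusted p = 0.143). The adjusted p of LEN+AI-10-104 against AI-10-104 rose above 0.05 without AI-10-104 replicate 3 (0.134), LEN+AI-10-104 replicate 1, 2 or 3 (0.0743 to 0.0871) or DMSO replicate 2 (0.0501), in a fit to the compared conditions alone (0.103) and with every gene of any RPKM above 0 (0.0637). The F test of PTPN2 (adjusted p = 0.0448) was lost in 11 of 12 removals of a library, all but that of AI-10-104 replicate 1, and reached 0.153 without AI-10-104 replicate 3. It was also lost with every gene of any RPKM above 0 (0.0773), with a filter of 10 reads on average (0.0541) and without the variance trend (0.0560).

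PIAS1 measured 6.58 to 7.45 RPKM, its conditions overlapped, and its intervals of the ratio ran from 0.864 to 1.11 over the 5 comparisons. It shares 3261 exon bases with CALML4 on the opposite strand (1.72 to 2.36 RPKM).

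An interaction of the drugs, a difference between the effect of the pair and the sum of the single effects on the log2 scale, was called for none of the 8 genes and for 0.0% of the 11241 genes by limma. Of all genes 1621 had an unadjusted p under 0.05, and none of the 8 had one. Voom called 3 genes, and limma called 540 without AI-10-104 replicate 2 and 2 without LEN+AI-10-104 replicate 3, none of them among the 8. For IL10RB the interaction was 0.03 (95% interval -0.10 to 0.16), and for SOCS3 it was 0.21 (-0.17 to 0.59).

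The other genes of the pathway were read from fixed lists of ligands, receptors, signal carriers, brakes and targets. Among 24 ligands, IFNG (mean 0.887 RPKM) and IL10 were tested and neither was called in any comparison (limma, with IL10 at an unadjusted p of 0.0136 in LEN+AI-10-104 against DMSO). The 13 type I interferon-α genes and IFNB1 were listed at 0 reads in every library, apart from IFNA5 with at most 3 reads. Of 6 other receptors 4 were tested, and IL10RA was the single one called by limma. It was called for LEN and AI-10-104 against DMSO and LEN+AI-10-104 against LEN, beside 0.649%, 1.77% and 1.68% of all genes. Of the 11 tested other brakes 0 were called against DMSO by limma, beside 0.649%, 1.77% and 2.94% of all genes. Voom called 0 of them in each pairwise comparison, beside 104 to 431 of all genes. In the F test voom called 2 of them, beside 2797 of all genes. At an unadjusted p under 0.05 limma had 1, 0 and 3 for LEN, AI-10-104 and LEN+AI-10-104. Of all 11241 genes, 1206, 2457 and 2659 had one. Of these 11, PIAS4 and SH2B3 passed the F test (adjusted p = 0.0217 and 0.0442), beside 17.2% of all genes, and both were highest in LEN+AI-10-104, at a mean of 13.0 and 5.16 RPKM against 11.5 and 4.47 in DMSO.

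Of the 7 kinases and transcription factors, JAK2 was called higher in LEN+AI-10-104 against DMSO (0.47, SE 0.11, adjusted p = 0.0225), from 2.18, 2.26 and 2.18 to 3.35, 2.92 and 3.01 RPKM. IRF9, the DNA-binding partner of STAT2, was called higher in LEN+AI-10-104 against AI-10-104 (0.35, SE 0.07, adjusted p = 0.0130). In these comparisons 2.94% and 3.63% of all genes were called. Called were 0 of the 7 for LEN and AI-10-104 against DMSO and for LEN+AI-10-104 against LEN, beside 0.649%, 1.77% and 1.68%. At an unadjusted p under 0.05 limma had 4, 3 and 6 for LEN, AI-10-104 and LEN+AI-10-104 against DMSO. Of all 11241 genes, 1206, 2457 and 2659 had one. Leaving out DMSO replicate 1, 2 or 3 or LEN+AI-10-104 replicate 1 or 3 ended the JAK2 call, as did quantile normalization and the inclusion of every gene of any RPKM above 0. Leaving out AI-10-104 replicate 1 or LEN+AI-10-104 replicate 1 or 3 ended the IRF9 call, as did quantile normalization and a pseudocount of 1. STAT2 was 8.18 ± 0.11 RPKM in DMSO, 9.95 ± 0.02 with LEN, 8.18 ± 0.40 with AI-10-104 and 10.0 ± 0.44 with both (SD, n = 3), passing the adjusted p in both conditions with LEN (0.0101 and 0.00252) under the fold threshold.

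Of 10 targets 5 were tested, and 2 were called higher in LEN+AI-10-104 against DMSO and against AI-10-104, where 2.94% and 3.63% of all genes were called in either direction. IRF1, an interferon-induced transcription factor, went from 9.47, 9.05 and 9.22 RPKM in DMSO to 11.2, 11.4 and 11.2 with LEN, 10.1, 10.6 and 10.3 with AI-10-104 and 13.8, 13.7 and 13.2 with both. No library of one condition reached those of another. Its log2 fold change with both drugs was 0.55 ± 0.04 against DMSO (adjusted p = 3.57e-06) and 0.39 ± 0.04 against AI-10-104 (adjusted p = 0.000197), called in all 24 alternatives each. Under the fold threshold, IRF1 passed the adjusted p in LEN (0.28, adjusted p = 0.00272) and AI-10-104 (0.16, adjusted p = 0.0283) against DMSO. It also did so in LEN+AI-10-104 against LEN (0.27, adjusted p = 0.00153). IFI6, an interferon-induced mitochondrial protein, was 0.519, 0.654 and 0.874 RPKM in DMSO, 1.08, 1.18 and 1.33 RPKM with LEN, 0.919, 0.867 and 0.653 RPKM with AI-10-104 and 1.08, 1.49 and 1.31 RPKM with both drugs, on at most 33 reads. Both conditions with LEN lay above both without it. The log2 fold change of IFI6 against DMSO was 0.85 ± 0.18 with both drugs (adjusted p = 0.0155) and 0.75 ± 0.18 with LEN (adjusted p = 0.0886), and LEN+AI-10-104 against LEN gave 0.10 (95% interval -0.30 to 0.49). OAS1, an interferon-induced sensor of double-stranded RNA, passed the F test (adjusted p = 0.0457), with log2 fold changes against DMSO of 0.67 ± 0.18 for LEN (adjusted p = 0.122) and 0.59 ± 0.18 for LEN+AI-10-104 (adjusted p = 0.0608). The IFI6 call against DMSO was lost without DMSO replicate 2 or LEN+AI-10-104 replicate 2, and the one against AI-10-104 (0.61 ± 0.18, adjusted p = 0.0430) in 13 of 23 alternatives, 9 of them the removal of DMSO replicate 2, of LEN replicate 1, 2 or 3, of AI-10-104 replicate 1 or 3, or of LEN+AI-10-104 replicate 1, 2 or 3. The other tested targets, MX1 and B2M, were not called by limma in any comparison. MX1 had log2 fold changes against DMSO of -0.08 for LEN, 0.26 for AI-10-104 and 0.24 for the pair. For B2M these were 0.18, 0.17 and 0.09. With the pair against AI-10-104 alone, MX1 gave -0.02 and B2M -0.08, where IRF1 and IFI6 were higher. The interaction for B2M was -0.26 (95% interval -0.45 to -0.07, adjusted p = 0.281). The 5 targets not tested were IRF7, IFIT3, PSMB9, TAP1 and GBP2, of which IRF7, PSMB9 and TAP1 are among the genes with alternate copies.

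**Figure D4:**
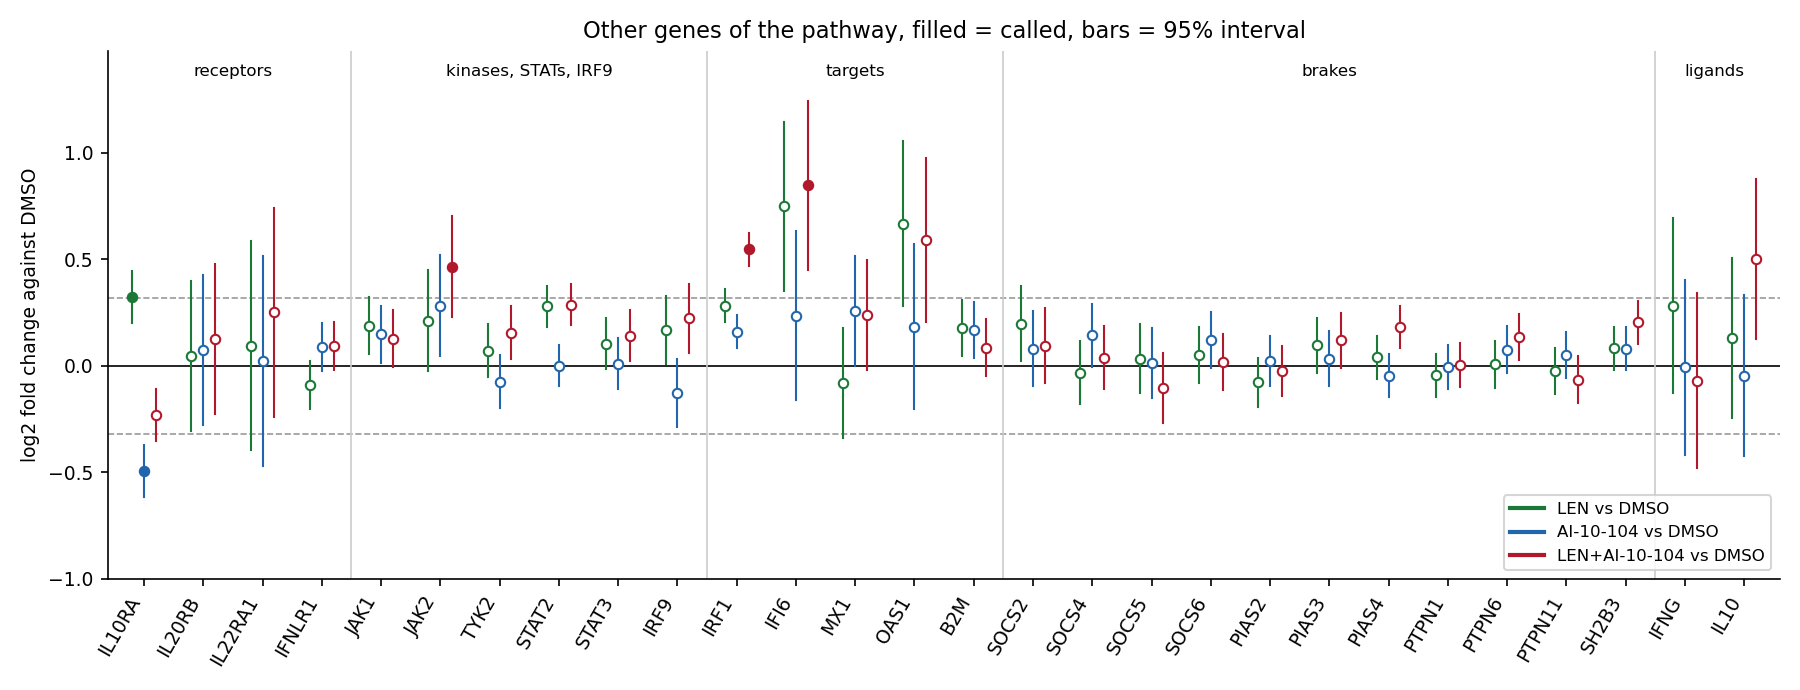
Log2 fold change against DMSO of 28 tested pathway genes outside the 10, in LEN (green), AI-10-104 (blue) and LEN+AI-10-104 (red), with 95% intervals. Filled dots are called, dashed lines mark 0.32 and -0.32. IL10RA is up in LEN and down in AI-10-104, while IRF1, IFI6 and JAK2 are called in LEN+AI-10-104.

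The genes whose log2 values followed IL10RB most closely over the 12 libraries were PDE7A (Pearson r 0.970), MSANTD2 (0.958), ZDHHC11 (0.947), ZNF862 (0.947) and HSD17B7P2 (0.942). In all, 24 of the 11240 other genes had an r above 0.9. The 12 points share 4 conditions and their libraries, and this is a description. IL10RB was used as the reference because it had the smallest p of the F test among the 8 genes.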

How the data were processed

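OPM-1 poly(A) RNA libraries (12, 3 per condition) were made with a stranded kit. The authors aligned reads to GRCh38 with STAR. They deposited RPKM values with gene lengths credited to featureCounts, and the submitters' notes also name FastQC, Cuffnorm and DESeq2. In the deposited RPKM table, values came out as whole reads for 100% of entries (within 0.05 read), which gave the depths. Conditions were taken from the sample titles. The 10 genes, the lists and the tests were chosen with earlier results of these data known.

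The 11241 genes averaging 0.5 RPKM or more were fitted on log2(RPKM + 0.1) in limma 3.58.1 (R 4.3.3), 1 mean per condition over all 12 samples, with a variance trend and Benjamini-Hochberg adjustment. Fold changes on this scale understate changes of low genes. A call took an adjusted p of 0.05 or less and a log2 fold change of at least 0.32, and those of the interaction and F test the adjusted p alone. A value on at most 3 reads was taken as the floor, and read numbers cover counting error only. The procedure was tested on simulated data. Named genes are the 10 genes and list members called or turned on by a result. The 5 genes most like the member with the smallest F test p are also named. PIAS4, SH2B3, STAT2, MX1, B2M and the chromosome 21 neighbours were named after their values were seen. Alternatives were other pseudocounts, filters, scalings and fits, voom on recovered reads, and removal of each library. The look-up of alternate-locus copies was added after the data were seen. Tables were handled with Python 3.11.15 and pandas 2.3.3, figures with matplotlib 3.10.9. A total of 28 genes carry spreadsheet dates as names, and no sample was left out. 1 listed gene and a promoter window are not reported here.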

Additional observations from a re-analysis of the deposited data

How the results depend on the processing

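The number of the 8 genes called was the same in every alternative run for LEN against DMSO (0) and for the interaction (0). For LEN+AI-10-104 against AI-10-104 (1, SOCS3) the count was 0 with a pseudocount of 1, with every gene of any RPKM above 0, and with a fit to the compared conditions, and 2 without the fold threshold. Removing single libraries gave 0 to 1 there. Without the fold threshold the count became 1 (IL10RB) for AI-10-104 against DMSO, LEN+AI-10-104 against DMSO and LEN+AI-10-104 against LEN, each 0 in the text, and removing libraries gave 0 to 1 for LEN+AI-10-104 against DMSO. The F test called 3 genes, 1 with every gene of any RPKM above 0, 2 with a filter of 10 reads on average or without the variance trend, and 1 to 3 when single libraries were removed. Single-gene values were pooled over the 10 genes and the pathway genes called in the main fit. Among them 1282 kept their direction and side of the threshold, 40 calls were lost and 6 gained. Another 28 values changed sign, none of them called. Of the 10 genes only SOCS3 lost calls. Outside them the losses were 7 for IL10RA, 7 for JAK2, 5 for IRF9, and 2 and 13 for IFI6. SOCS1 and IFNGR2 were fitted only where every gene of any RPKM above 0 was kept, and count as kept. With median-ratio rescaling the log2 fold change became -0.00176 for IFNAR2 in LEN+AI-10-104 against DMSO, and in LEN+AI-10-104 against LEN -0.00829 for IFNGR1 and -0.0218 for SOCS3. Quantile normalization gave -0.0224 for IFNGR1 and -0.0729 for SOCS3 in the latter comparison, -0.0415 for CISH in LEN+AI-10-104 against DMSO, and -0.00545 for the IFNAR2 interaction. Removing single libraries gave sign changes within these ranges. In LEN against DMSO they were -0.0193 to 0.107 for IFNGR1, -0.0630 to 0.0118 for PIAS1 and -0.175 to 0.0456 for CISH, and in AI-10-104 against DMSO -0.00521 to 0.0536 for IFNAR2. In LEN+AI-10-104 against DMSO they were -1.60e-05 to 0.0518 for IFNAR2 and -0.209 to 0.224 for CISH. In LEN+AI-10-104 against LEN they were -0.0460 to 0.0224 for IFNAR1, -0.0472 to 0.0795 for IFNGR1, -0.0630 to 0.0608 for SOCS3 and -0.150 to 0.284 for CISH. In LEN+AI-10-104 against AI-10-104 they were -0.0298 to 0.0323 for IFNAR2 and -0.0536 to 0.380 for CISH, and for the interaction -0.00923 to 0.0529 for IFNAR2 and -0.00232 to 0.0607 for IL10RB. The main fit did not pair samples by replicate number. Deviations of same-numbered libraries correlated at a mean of 0.0522 (-0.0272 to 0.155, 18 pairs). Those of others did at a mean of -0.0261 (-0.133 to 0.0590, 36 pairs). With the replicate block the members called were 0, 0, 0, 0, 1, 0 and 3 over the 7 tests, so no count of members changed. Over all genes that block raised the calls of every pairwise comparison. They went from 73 to 79 in LEN against DMSO and from 408 to 473 in LEN+AI-10-104 against AI-10-104. F test calls went from 1929 to 2371, and those of the interaction stayed at 0. Median-ratio scale factors were 0.989 to 1.02. Fits to the compared conditions, or without the fold threshold, were not run for the interaction and F test. Replicates differed by more than counting error, at 1.98 to 11.1 units of chi-square for each degree of freedom. Low reads limit SOCS1 (3 to 14), IFNGR2 (4 to 18), IFI6 (13 to 33) and IFNG (13 to 44).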
